A study of Mus musculus with 18 samples.

Results

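The LPS response of TLR4-K730R macrophages was measured in 6 of the 18 RNA-seq libraries of the study, 3 of them mock-treated and 3 treated with LPS. They were chosen by the genotype and treatment in their labels, so no expression value took part in the choice, and the response is described across 9707 tested genes of 13598 genes with a value. The cells were peritoneal macrophages, harvested after thioglycollate injection by the methods of the study, from mice on a C57BL/6 background whose Tlr4 gene had been edited with CRISPR so that the protein has arginine in place of lysine at residue 730, within the TIR domain. Both groups carry this substitution and differ in LPS at 100 ng/ml for 6 h. The other 12 libraries are the same 2 treatments in TLR4-WT and TLR4-K810R macrophages, which serve for comparison and also entered the filter on low genes and the fit that estimates the spread. The labels give neither age nor sex, and no source used here says whether the 3 libraries of a group come from separate mice or how many mice were pooled, so every p-value measures the spread between these libraries, which may be technical.

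LPS, the endotoxin of the outer membrane of gram-negative bacteria, is bound by TLR4 together with MD-2 and CD14. Through its cytoplasmic TIR domain the receptor recruits the adaptors TIRAP and MyD88, which act through IRAK kinases, TRAF6 and the IKK complex on NF-κB and so on inflammatory cytokine genes. From endosomes it signals through the adaptors TRAM and TRIF to TBK1 and IRF3, which induce type I interferon and, through it, interferon-stimulated genes. Lysine can be acetylated, whereas arginine keeps the positive charge and cannot, which is why lysine-to-arginine mice are used to ask what acetylation of a residue contributes.

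The edited codon is shown because it defines the mice. It is codon 730 of 835 in transcript Tlr4-201 (GENCODE, GRCm38), lies in exon 3 of 3 and is therefore exonic and coding, at positions 66841159 to 66841161 on the plus strand of chromosome 4. The unedited reference around it reads as follows, with the lysine codon in capitals, and the edited sequence was not analysed here.
Tlr4 codon, chr4:66841144-66841173, plus strand: ttccacaagagccggAAGgttattgtggta

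Promoters of 6 LPS-induced genes are shown because the results below turn on them, 3 from interferon-stimulated genes or the interferon-induced chemokine Cxcl10 and 3 from neutrophil-attracting chemokines. Each window runs from 250 bases before to 50 bases after the gene start, written 5′ to 3′ on the strand of the gene, from RefSeq on GRCm38.p6. Capitals mark matches, on either strand, to a core of the interferon-stimulated response element, spelled GAAA, any 2 bases and GAAA, or to a form of the κB site, spelled GGG, any 2 bases and TTTCC; no match to one overlaps a match to the other in these windows.
Ifit3, chr19:34583279-34583578, plus strand: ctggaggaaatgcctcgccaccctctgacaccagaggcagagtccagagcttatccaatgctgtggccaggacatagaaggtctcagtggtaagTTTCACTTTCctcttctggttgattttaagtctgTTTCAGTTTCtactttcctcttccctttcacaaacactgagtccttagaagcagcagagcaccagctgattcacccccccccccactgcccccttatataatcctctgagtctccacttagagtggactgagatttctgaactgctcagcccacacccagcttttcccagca
Oas3, chr5:120777610-120777909, minus strand: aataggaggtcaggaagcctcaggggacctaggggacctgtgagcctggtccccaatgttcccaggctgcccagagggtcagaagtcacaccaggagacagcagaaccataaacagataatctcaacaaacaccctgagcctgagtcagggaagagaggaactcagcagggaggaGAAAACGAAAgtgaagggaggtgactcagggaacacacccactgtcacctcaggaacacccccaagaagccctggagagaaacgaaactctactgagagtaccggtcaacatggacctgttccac
Cxcl10, chr5:92348840-92349139, minus strand: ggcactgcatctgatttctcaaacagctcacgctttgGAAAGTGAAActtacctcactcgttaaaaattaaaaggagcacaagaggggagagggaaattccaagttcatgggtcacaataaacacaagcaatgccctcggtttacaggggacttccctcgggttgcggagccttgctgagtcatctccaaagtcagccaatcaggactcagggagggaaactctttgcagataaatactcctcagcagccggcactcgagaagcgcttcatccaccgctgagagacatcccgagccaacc
Cxcl1, chr5:90890995-90891294, plus strand: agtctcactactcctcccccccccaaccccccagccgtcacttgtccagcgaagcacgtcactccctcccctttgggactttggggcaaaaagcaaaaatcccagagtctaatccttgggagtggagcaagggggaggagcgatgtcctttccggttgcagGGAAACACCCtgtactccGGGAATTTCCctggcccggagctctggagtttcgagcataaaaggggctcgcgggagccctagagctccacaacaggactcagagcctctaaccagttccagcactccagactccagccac
Cxcl2, chr5:90903649-90903948, plus strand: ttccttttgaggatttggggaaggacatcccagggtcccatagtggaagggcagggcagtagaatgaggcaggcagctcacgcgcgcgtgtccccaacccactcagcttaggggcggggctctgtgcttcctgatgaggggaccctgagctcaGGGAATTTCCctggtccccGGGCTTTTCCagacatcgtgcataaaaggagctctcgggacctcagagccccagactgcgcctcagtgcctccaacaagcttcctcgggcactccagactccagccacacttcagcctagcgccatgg
Cxcl3, chr5:90785851-90786150, plus strand: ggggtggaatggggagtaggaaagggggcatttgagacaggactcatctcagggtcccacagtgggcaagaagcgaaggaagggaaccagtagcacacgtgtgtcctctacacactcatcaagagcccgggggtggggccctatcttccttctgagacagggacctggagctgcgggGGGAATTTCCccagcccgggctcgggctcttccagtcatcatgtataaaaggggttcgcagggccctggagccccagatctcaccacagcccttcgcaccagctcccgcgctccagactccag

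The matches began 156 and 122 bases before the start of Ifit3, 75 bases before that of Oas3 and 213 bases before that of Cxcl10 for the response element. For the κB site they began 89 and 71 bases before the start of Cxcl1, 97 and 78 bases before that of Cxcl2 and 73 bases before that of Cxcl3. The window of H2-M2, whose response differs from TLR4-WT below, was searched too, held neither motif and is not printed. A match is a description of the letters and not a shown binding site. Among all 32851 promoter windows 3.44% held the response element and 1.63% the κB site. Of the 9707 tested genes 7703 were matched to a window, and 4.04% and 2.12% of these held the motifs.

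The values are FPKM, fragment numbers normalised for transcript length and library size. The value of a gene is built from its listed first or last exons and can be partial, so levels of different genes compare only roughly. No read counts are in the files used here, so the depth of the libraries is unknown. The 6 libraries held 84376 to 89344 event entries. The mock libraries had a value for 10671 to 10935 genes and the LPS libraries for 10425 to 10575. Macrophage markers were abundant in all 6 libraries, with a summed level of 19690 to 21040 FPKM in mock and 12330 to 13820 FPKM in LPS over 10 tested genes. Cd14 and Cx3cr1, which are also on this list, were listed at 0 in all 6, which says only that no first or last exon of the gene is listed. The T cell markers Cd3e, Cd8a and Cd2 and the B cell marker Ms4a1 were among those listed at 0 in all 6 libraries. Of 8 T cell markers with a value none was tested, and of 8 B cell markers 2 were tested. The B cell gene Cd79b, at 1.46, 1.17 and 1.18 FPKM in mock and 0.215, 0.420 and 0.518 FPKM in LPS, was called lower, and not with scaling. Low levels of intestinal epithelium genes stood out, with Reg3b at 11.7, 22.6 and 25 FPKM in mock and 30.9, 25.8 and 29.5 FPKM in LPS. The summed level of these markers was 56.3 to 84.5 FPKM in mock and 63.5 to 70.6 FPKM in LPS, none of the 10 tested was called, and the share of other cells in the responses below was not tested. In bulk RNA, fewer cells of a type and less RNA per cell cannot be told apart.

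The library labelled TLR4-K730R LPS replicate 3 stood apart from its group. Its values correlated across genes with r of 0.966 and 0.963 with replicates 1 and 2, and with r of 0.969 and 0.974 with the libraries labelled TLR4-WT LPS replicates 1 and 2. The library labelled TLR4-WT LPS replicate 3 did the opposite, with r of 0.970 against both TLR4-K730R LPS replicates 1 and 2, and 0.966 and 0.962 against TLR4-WT LPS replicates 1 and 2. Its resemblance was not to TLR4-K730R alone, since its r with TLR4-K810R LPS replicates 1 to 3 was 0.964, 0.970 and 0.969. Against the same TLR4-K810R libraries r was 0.959, 0.966 and 0.969 for TLR4-K730R LPS replicate 1, and 0.953, 0.955 and 0.954 for replicate 3. Among the 905 genes called higher after LPS, replicate 3 lay more than 1 log2 unit above both other LPS libraries in 42 genes and below both in 19. For replicate 1 these numbers were 1 and 0, and for replicate 2 they were 0 and 4.

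In the interferon-stimulated list it lay above in 6 of 34 called genes, Cmpk2, Ifi44, Ifit2, Irgm1, Isg20 and Rsad2, and below in none. In the chemokine list it lay above in 5 of 15 called genes, Ccl2, Ccl7, Ccl12, Cxcl9 and Cxcl10, which draw monocytes and T cells, and below in 5, Ccl3, Cxcl1, Cxcl2, Cxcl3 and Cxcl5. Cxcl10 read 266, 233 and 913 FPKM in TLR4-K730R LPS replicates 1 to 3, and 865, 907 and 450 FPKM in TLR4-WT. Cxcl1 read 515, 598 and 134 FPKM in TLR4-K730R and 137, 119 and 397 FPKM in TLR4-WT. Slpi, a secreted protease inhibitor, read 4000, 3794 and 1538 FPKM in TLR4-K730R and 1566, 1727 and 3679 FPKM in TLR4-WT. In each of these genes the library numbered 3 of either genotype lay nearer to replicates 1 and 2 of the other genotype.

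The intestinal gene Reg3b was 30.9, 25.8 and 29.5 FPKM in the libraries labelled TLR4-K730R LPS and 0.0928, 1.4 and 2.89 FPKM in those labelled TLR4-WT LPS. Over the 10 intestinal markers mean log2 levels were 2.23, 2.33 and 2.03 in TLR4-K730R LPS, and they varied within a label, at 0.01, 1.08 and 1.29 in TLR4-WT LPS and 1.5, 0.06 and 0.01 in TLR4-K810R LPS. Other genes whose mock values separated TLR4-K730R from TLR4-WT did not follow the labels. In LPS Fcna read 29.6, 27.8 and 43.7 FPKM in TLR4-K730R and 40.6, 42.7 and 30.1 FPKM in TLR4-WT. Retnla read 10.6, 13.6 and 30.2 FPKM against 25.3, 29.5 and 13.4 FPKM, and Wdfy1 11.0, 9.62 and 5.39 FPKM against 7.08, 4.10 and 18.3 FPKM. Mean log2 levels of the 35 interferon-stimulated genes were 6.53, 6.31 and 7.07 in TLR4-K730R LPS and 7.42, 7.15 and 6.84 in TLR4-WT LPS. The genes in this and the preceding paragraph were picked after their values were seen, and why replicate 3 stood apart was not tested. For several of the genes it moved, the values without replicate 3 are given below.

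**Figure D1:**
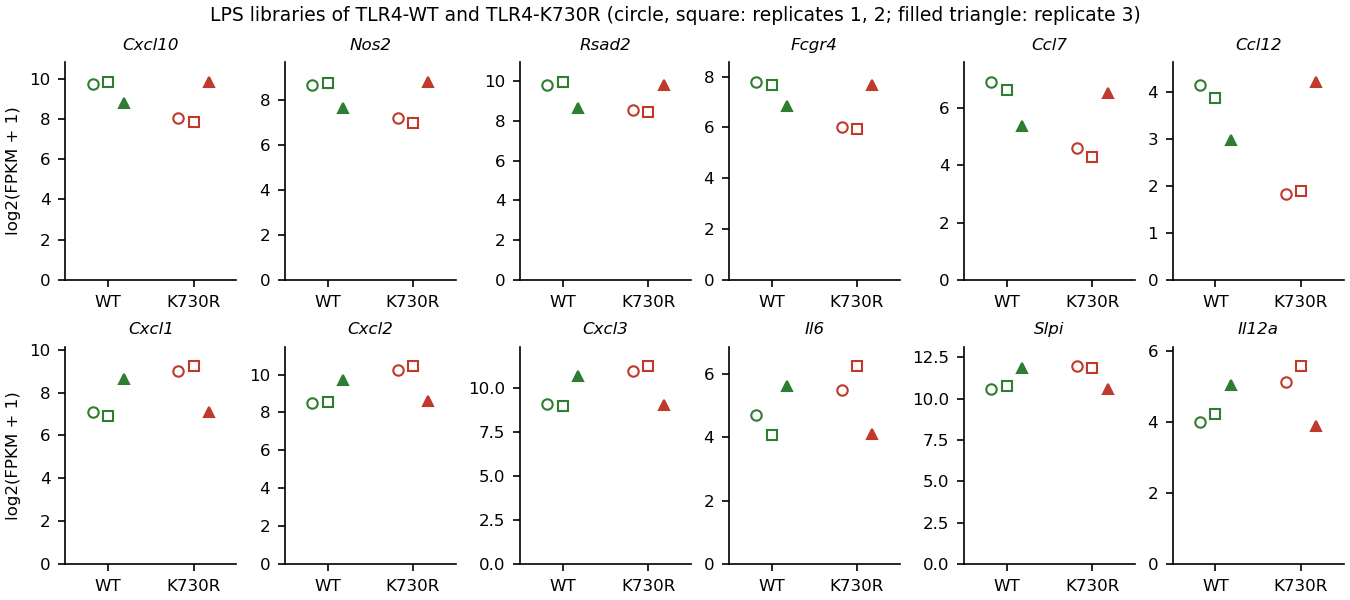
Level of 12 genes, log2(FPKM + 1), in the LPS libraries of TLR4-WT (green) and TLR4-K730R (red); open circle and square are replicates 1 and 2, the filled triangle is replicate 3. In the upper genes, such as Cxcl10 (266, 233 and 913 FPKM in TLR4-K730R), and in the lower genes, such as Cxcl1 (515, 598 and 134 FPKM), replicate 3 of each genotype lies on the side of the other genotype.

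The response as a whole was broad. With limma and an adjusted p below 0.01, 905 genes rose after LPS, 9.32% of the 9707 tested, and 2568 fell, 26.5%, so that 35.8% were called in all. With only the 6 TLR4-K730R libraries in the fit, 758 rose and 2050 fell. In 904 of the risen and 2563 of the fallen genes the 3 LPS libraries did not overlap the 3 mock libraries. Of all tested genes 13.8% were higher and 45.0% lower without overlap, 58.8% in all. A call at this threshold favours genes without overlap, so the separation of called genes adds no support to the calls. The rises were larger than the falls, with a median log2 change of 1.47 among the genes that rose and −1.01 among those that fell. A change of at least 3 on the log2 scale was seen in 130 risen and 38 fallen genes, and of at least 5 in 34 and 1. Of the 905 genes that rose, 165 had a mock mean under 1 FPKM and 47 were listed at 0 in all 3 mock libraries. The filter shaped both counts, because only genes that reached 1 FPKM in 3 or more of 18 libraries were tested. Genes low in every group were thus left out. The matching shares among all tested genes were not computed, so no conclusion is drawn from these counts.

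The balance of higher and lower depended on scaling. Over the tested genes the median log2 change was −0.36 with the values as deposited and −0.04 after median-of-ratios scaling of the libraries. With scaling 1483 of the 9707 genes rose and 1310 fell, and counts with scaling given below stand beside these numbers. The shares of 9.32% and 26.5% hold for the values as deposited. All 905 rises and 1310 of the 2568 falls were called under both, 1258 falls were lost, 578 rises were gained, and no gene was called in opposite directions. Genes that rose held 8.20 to 8.92% of the summed FPKM in the mock libraries and 31.4 to 34.1% in the LPS libraries. FPKM is a share of the library, so a rise in some genes lowers the values of others, and single genes whose fall lost its call with scaling are named as such in what follows.

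**Figure D2:**
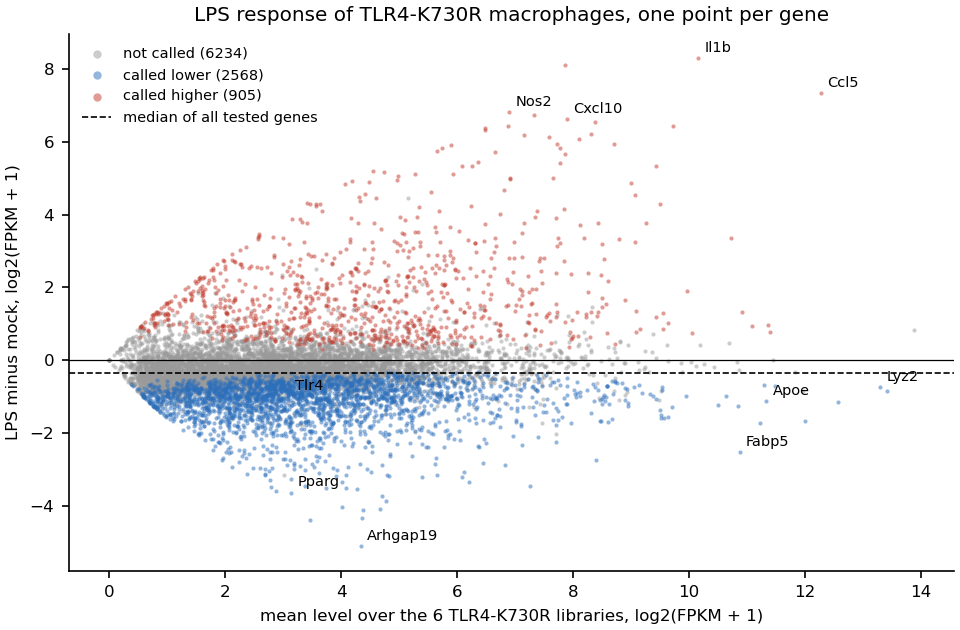
Mean level over the 6 TLR4-K730R libraries, log2(FPKM + 1), against the LPS minus mock change on the same scale, one point per tested gene, with called rises in red and called falls in blue. The 905 rises reach 8.31 for Il1b, the 2568 falls are mostly smaller, and the dashed line marks the median of all genes at −0.36.

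Receptor and adaptor genes come first in the pathway. Tlr4 itself was 12.1, 9.31 and 9.85 FPKM in mock and 5.10, 4.38 and 4.57 FPKM in LPS, and fell by 1.0 on the log2 scale (SE 0.15, limma adjusted p = 3.5e-05), with no overlap. The knock-in changes 1 codon and leaves the gene expressed, so its level does not check the genotype labels. Myd88, the adaptor, was 28.6, 28.5 and 26.0 FPKM in mock and 84.7, 83.6 and 99.7 FPKM in LPS, a rise of 1.65 (SE 0.09). Irak3, a kinase-like protein that restrains IRAK signalling, was 13.3, 17.4 and 13.3 FPKM in mock and 87.8, 91.7 and 66.5 FPKM in LPS, a rise of 2.40 (SE 0.16). Of the 15 tested members of the TLR4 and MyD88 list 3 rose and 4 fell, with a median of 0.22, the falls being near the 26.5% of all genes that fell. With scaling 6 rose and 2 fell, with a median of 0.58, so the balance depends on the scaling. Irak2 was the other rise, by 0.65, and Map3k7, which encodes the kinase TAK1, and its partner Tab1 fell by 0.77 and 0.74. Irak4 fell by 0.58, but its change was 0.09 with first-exon sums only, and it was not called with scaling, without mock replicate 1 (adjusted p = 0.0160) or without LPS replicate 3 (adjusted p = 0.0113), and Tab1 was not called with scaling. Not called were Ly96, which encodes MD-2, Tirap, Traf6, Chuk, Ikbkb, Ikbkg, Tab2 and Map3k8.

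Of 9 tested genes of other Toll-like receptors and their chaperone Unc93b1, 3 rose and 1 fell, beside 9.32% of all genes that rose and 26.5% that fell. Tlr2, the receptor for bacterial lipopeptides, was 22.0, 22.1 and 26.4 FPKM in mock and 103, 95.2 and 65.7 FPKM in LPS, a rise of 1.84 (SE 0.15). Tlr7, a sensor of single-stranded RNA, rose by 1.89, and Tlr13, a sensor of bacterial ribosomal RNA, was 99.1, 98.8 and 108 FPKM in mock and 48.7, 40.1 and 42.8 FPKM in LPS, a fall by 1.20 on the log2 scale. Tlr3, a sensor of double-stranded RNA, rose by 1.66 with all libraries, but its adjusted p was 0.0152 and 0.0137 without mock replicates 2 and 3, and 0.0157 and 0.0228 without LPS replicates 1 and 3. In the TRIF branch 4 of 7 listed genes were tested, and Ikbke, a TBK1-related kinase, was the 1 that rose, by 1.16.

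NF-κB genes rose together with those that restrain NF-κB. Among the 5 subunit genes 3 rose and none fell, beside 9.32% of all genes that rose and 26.5% that fell. Nfkb2, the p100 precursor, was 20.7, 25.7 and 19.2 FPKM in mock and 167, 187 and 173 FPKM in LPS, a rise of 2.96 (SE 0.16, adjusted p = 6e-10), while Relb and Rela rose by 0.96 and 0.80 and Nfkb1 and Rel were not called. In the list of inhibitors and feedback genes 11 of 14 tested rose and none fell, with a median of 1.86 against −0.36 over all genes. Nfkbia, which encodes the IκBα that holds NF-κB in the cytoplasm, was 75.4, 79.9 and 84.7 FPKM in mock and 395, 453 and 408 FPKM in LPS, a rise of 2.37 (SE 0.10). Tnfaip3, the ubiquitin editor A20, was 30.6, 31.5 and 29.3 FPKM in mock and 160, 154 and 156 FPKM in LPS, a rise of 2.32 (SE 0.10). Tnip1, a partner of A20, rose by 2.82, Zc3h12a, an RNase that degrades cytokine transcripts, by 2.52 and Nfkbiz, a nuclear IκB, by 2.34. Nfkbib, which encodes IκBβ, was 6.11, 5.57 and 7.20 FPKM in mock and 48.0, 35.4 and 108 FPKM in LPS, a rise of 3.0 (SE 0.58). Its change was 2.54 without LPS replicate 3, and 0.52 in TLR4-WT and 0.81 in TLR4-K810R, yet the difference between genotypes was not called (adjusted p = 0.53 against TLR4-WT).

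Acetyltransferases and deacetylases bear on the acetylation of the TIR domain that the study is about. Of 16 tested genes 2 rose and 6 fell with the values as deposited, and 3 rose and 1 fell with scaling, beside 9.32% of all genes that rose and 26.5% that fell with the values as deposited. Hdac1, a class I deacetylase, was 14.6, 16.2 and 15.9 FPKM in mock and 27.0, 27.1 and 31.6 FPKM in LPS, a rise of 0.83 (SE 0.20, adjusted p = 0.0028) without overlap. Leaving out mock replicate 1 or LPS replicate 3 gave an adjusted p of 0.0124 or 0.0142 for Hdac1. Hdac4, a class IIa deacetylase, fell by 1.23 and was called with scaling too. Crebbp, which encodes the acetyltransferase CBP, was 6.39, 5.08 and 5.81 FPKM in mock and 4.49, 4.37 and 4.12 FPKM in LPS and was not called, and neither was Ep300, which encodes its relative p300.

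Of 21 tested cytokine genes 17 rose and none fell, with a median of 2.88, beside 9.32% of all genes that rose and 26.5% that fell and a median of −0.36. Il1b, the inflammasome-processed pyrogen, was 4.83, 6.13 and 6.99 FPKM in mock and 2869, 2559 and 1430 FPKM in LPS, a rise of 8.31 (SE 0.26, adjusted p = 1.7e-12), the largest of all tested genes on this scale. Tnf was 18.9, 20.2 and 17.7 FPKM in mock and 323, 330 and 259 FPKM in LPS, a rise of 3.93 (SE 0.13). Il6, an inducer of the acute phase response, was listed at 0, 0 and 0.19 FPKM in mock and was 43.9, 74.8 and 16.4 FPKM in LPS, a rise of 5.20 (SE 0.41) that was 5.78 without LPS replicate 3. Il1a, Csf3, which encodes the neutrophil growth factor G-CSF, and Il12a, a subunit of interleukin 12, rose by 6.23, 5.17 and 4.84, and without LPS replicate 3 the changes of Csf3 and Il12a were 5.54 and 5.33. Tnfsf10, which encodes the death ligand TRAIL and is among the 17, was not called without LPS replicate 3 (adjusted p = 0.0276). In none of these genes did the LPS libraries overlap the mock libraries, and the LPS replicates of Il6 ranged from 16.4 to 74.8 FPKM.

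Chemokines rose in 15 of 22 tested genes and fell in 1, Cxcl14, with a median of 2.55, beside 9.32% of all genes that rose and 26.5% that fell. Ccl5, which attracts T cells and monocytes, was 64.1, 66.2 and 49.9 FPKM in mock and 9723, 10597 and 9414 FPKM in LPS, a rise of 7.35 (SE 0.15, adjusted p = 9.8e-15), and all 3 LPS libraries were close together. Cxcl3, a neutrophil attractant, was 13.8, 15.4 and 15.5 FPKM in mock and 2058, 2457 and 523 FPKM in LPS, a rise of 6.44 that was 7.15 without LPS replicate 3. Cxcl10 rose by 6.63, or 6.01 without it, Cxcl1 by 5.94, or 6.62, and Cxcl2 by 4.87, or 5.44. Leaving out replicate 3 lowered the rise of the interferon-induced chemokine and raised that of the 3 neutrophil attractants. Cxcl9, another interferon-induced chemokine, was called with all 3 libraries and not without replicate 3 (adjusted p = 0.0287).

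**Figure D3:**
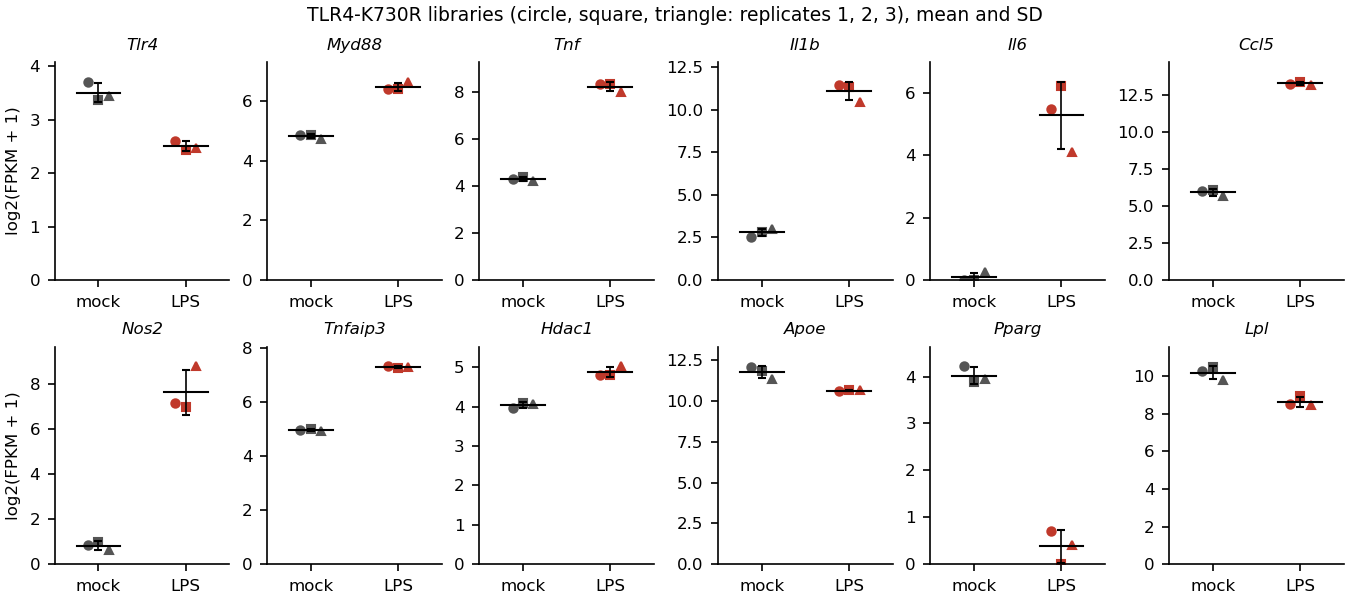
Level of 12 genes, log2(FPKM + 1), in the 3 mock (grey) and 3 LPS (red) libraries of TLR4-K730R, with the mean (long bar) and SD (error bar) of each group and the replicate numbers as circle, square and triangle. Il1b (4.83 to 6.99 FPKM in mock and 1430 to 2869 FPKM in LPS) and Ccl5 separate by far more than their spread, whereas Apoe and Hdac1 separate by less.

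Interferon-stimulated genes were the list that rose most completely. Of 35 tested members 34 rose, 34 also with scaling, and none fell, with a median of 4.11, against a background of 9.32% of all genes that rose. Mx1, a GTPase that blocks influenza viruses, was 2.13, 1.49 and 1.94 FPKM in mock and 246, 236 and 472 FPKM in LPS, a rise of 6.73 (SE 0.29). Rsad2, which encodes the antiviral enzyme viperin, was 6.35, 6.59 and 5.62 FPKM in mock and 377, 344 and 898 FPKM in LPS, a rise of 6.09, or 5.66 without LPS replicate 3. Irf7, the factor that amplifies interferon, was 6.86, 8.82 and 28.7 FPKM in mock and 680, 861 and 930 FPKM in LPS, a rise of 5.95 (SE 0.36). Ifit1, a binder of foreign 5′ RNA ends, rose by 6.15 (SE 0.20). The member that was not called, Isg15, was listed at 0 in all 6 TLR4-K730R libraries and read 254, 0 and 212 FPKM in the TLR4-WT LPS libraries. A value of 0 says only that no first or last exon of the gene is listed for the library. The response element of the promoter windows was present in 17 of the 26 members with a window, 65.4%, in 11.9% of 697 genes that rose, in 3.14% of 2036 that fell and in 3.30% of 4970 that were not called. The κB letters were present in 4.16% of the genes that rose, 1.47% of those that fell and 2.09% of those not called, and in 4 of 14 chemokine genes with a window. These shares describe letters in the windows, without a test.

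Genes of nitric oxide, prostaglandin and itaconate synthesis and of defence rose in 13 of 16 tested cases and fell in 1, with a median of 3.18, beside 9.32% of all genes that rose and 26.5% that fell. The fall was in Ncf1, which encodes a subunit of the phagocyte oxidase and read 111, 108 and 113 FPKM in mock and 28.9, 39.5 and 36.6 FPKM in LPS. Nos2, the inducible nitric oxide synthase, was 0.814, 0.989 and 0.524 FPKM in mock and 144, 124 and 441 FPKM in LPS, a rise of 6.82 (SE 0.43), or 6.25 without LPS replicate 3. Lcn2, which sequesters bacterial siderophores, was 1.32, 2.88 and 1.12 FPKM in mock and 179, 256 and 263 FPKM in LPS, a rise of 6.43 (SE 0.24). Slc7a2, an importer of arginine, the substrate of NOS2, was 5, 9.31 and 4.65 FPKM in mock and 731, 646 and 589 FPKM in LPS, a rise of 6.54 (SE 0.19). Ptgs2, which encodes COX-2, and Ptges, the next enzyme toward prostaglandin E2, rose by 4.96 and 5.35. Slpi rose by 3.36, or 3.81 without replicate 3. Saa3, an acute phase apolipoprotein, was 1122, 1156 and 1232 FPKM in mock and 11074, 9443 and 1.63 FPKM in LPS, and was not called. A low value also stood in TLR4-K810R, where LPS replicates 1 to 3 read 13.4, 11140 and 9295 FPKM, and the reason was not tested.

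MHC class I presentation genes rose in 12 of 14 tested cases and fell in none, with a median of 2.10, beside 9.32% of all genes that rose. Of 8 tested class II genes none rose and 3 fell, or 1 with scaling, beside 26.5% of all genes that fell, and their median of −0.27 was close to the −0.36 of all genes. Tap1, a subunit of the peptide transporter, was 14, 18.1 and 14.6 FPKM in mock and 181, 124 and 175 FPKM in LPS, a rise of 3.27 (SE 0.19), and Nlrc5, the class I transactivator, rose by 2.80. Ciita, the class II transactivator, was 2.34, 0.952 and 1.5 FPKM in mock and 0, 0 and 0.610 FPKM in LPS and fell by 1.11 on the log2 scale. Its adjusted p was 0.0195, 0.0156 and 0.0151 without mock replicate 1, LPS replicate 1 or LPS replicate 2. The class II chain H2-Aa, at 178 to 195 FPKM in mock and 157 to 197 FPKM in LPS, was not called. Costimulatory and checkpoint ligand genes rose in 4 of 7 tested cases, beside the same 9.32%. Cd274, which encodes PD-L1, was 46.3, 37.6 and 40.2 FPKM in mock and 393, 357 and 442 FPKM in LPS, a rise of 3.23 (SE 0.12). Cd40 and Cd86, a marker of inflammatory macrophages, rose by 3.15 and 2.54.

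Inflammasome and cell death genes rose in 8 of 14 tested cases and fell in 2, with a median of 1.48, beside 9.32% of all genes that rose and 26.5% that fell. Nlrp3, the inflammasome sensor, was 6.75, 6.84 and 6.37 FPKM in mock and 90.6, 81.4 and 49.7 FPKM in LPS, a rise of 3.25 (SE 0.18). Casp4, the sensor of cytosolic LPS, rose by 2.85 and Mlkl, the executor of necroptosis, by 3.03. Pycard, the adaptor ASC, was 29.1, 50.03 and 26.2 FPKM in mock and 11.4, 13.5 and 16.7 FPKM in LPS and fell by 1.24 on the log2 scale. Of 11 tested early response factors 5 rose and 3 fell, near the 26.5% of all genes for the falls, and 5 rose and 1 fell with scaling. Fosl2 rose by 2.10, whereas Fos, which peaks early after stimulation, was 38.5, 36.9 and 39.4 FPKM in mock and 13.5, 15 and 15.1 FPKM in LPS and fell by 1.33.

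**Figure D4:**
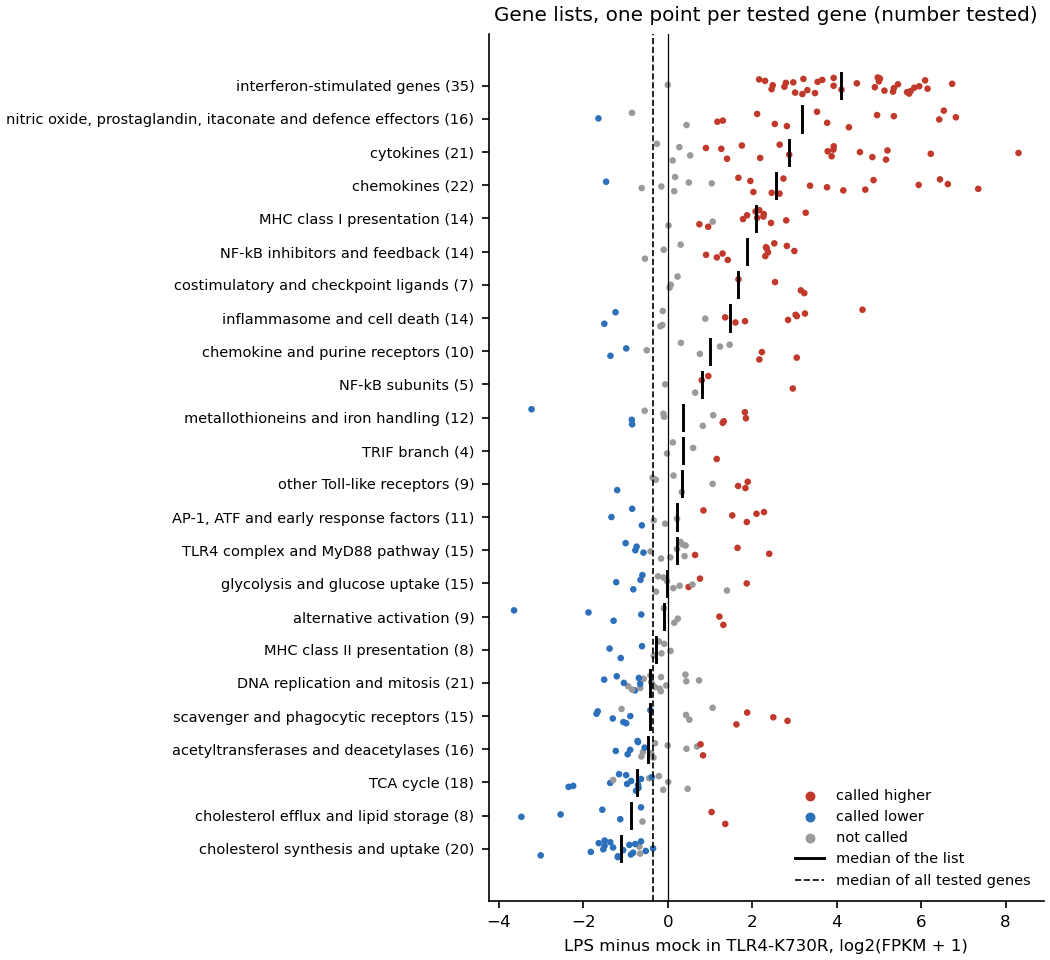
LPS minus mock change of every tested gene of 24 lists on the log2(FPKM + 1) scale, with red for called higher, blue for called lower and grey for not called, the list median as a black bar and the median of all genes (−0.36) as a dashed line. The interferon-stimulated list has the highest median (4.11), and cholesterol synthesis and uptake the lowest (−1.12), with no member called higher.

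Genes of cholesterol synthesis fell with few exceptions. In the cholesterol synthesis and uptake list 18 of 20 tested genes fell and none rose, with a median of −1.12, against a background of 26.5% of all genes that fell. With scaling 10 fell and none rose, with a median of −0.76. Dhcr7, a terminal enzyme of cholesterol synthesis, was 26.5, 31.0 and 21.1 FPKM in mock and 3.37, 1.66 and 2.20 FPKM in LPS, a fall by 3.01 on the log2 scale (SE 0.32). Hmgcs1, an early enzyme of the pathway, was 33.4, 40.8 and 29.0 FPKM in mock and 9.72, 9.06 and 8.03 FPKM in LPS, a fall by 1.82, and Insig1, a sterol sensor that retains SREBP, fell by 1.53. All 3 were called with scaling as well.

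Lipid handling genes changed with them. Pparg, the nuclear receptor of lipid storage and alternative activation, was 17.6, 13.8 and 14.4 FPKM in mock and 0.640, 0 and 0.335 FPKM in LPS, a fall by 3.64 (SE 0.27, adjusted p = 2.4e-08). Fabp4, a fatty acid carrier and a known PPARγ target, was 293, 273 and 272 FPKM in mock and 24.3, 21.4 and 27.7 FPKM in LPS, a fall by 3.47, and its relative Fabp5 was 3377, 3174 and 3040 FPKM in mock and 476, 532 and 654 FPKM in LPS, a fall by 2.54. Lpl, the lipase that frees fatty acids from lipoproteins, fell by 1.55. In the efflux and storage list as a whole 5 of 8 tested genes fell and 2 rose, beside 26.5% of all genes that fell and 9.32% that rose. With scaling 3 fell and 2 rose, beside 1310 falls and 1483 rises among 9707 genes. Abca1, the exporter of cholesterol, was 30.4, 27.3 and 31.3 FPKM in mock and 81.4, 72.6 and 79.1 FPKM in LPS, a rise of 1.36. Apoe, an apolipoprotein, was 4395, 3659 and 2665 FPKM in mock and 1551, 1610 and 1651 FPKM in LPS, a fall by 1.13 that was not called with scaling. Its adjusted p was 0.0235 and 0.0148 without mock replicates 1 and 2, and 0.0140, 0.0118 and 0.0113 without LPS replicates 1, 2 and 3.

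In the TCA cycle list 12 of 18 tested genes fell and none rose, or 6 and none with scaling. Of all 9707 genes 26.5% fell, and 1310 fell with scaling. Idh1, a cytosolic isocitrate dehydrogenase, was 136, 133 and 137 FPKM in mock and 31.1, 29.1 and 18.9 FPKM in LPS, a fall by 2.35 (SE 0.18). The mitochondrial Idh2 was 35.4, 37.7 and 33.3 FPKM in mock and 3.95, 8.67 and 8.56 FPKM in LPS, a fall by 2.24, and Idh3g, a subunit of the NAD-dependent enzyme, fell by 1.36. Of 15 tested glycolysis genes 3 rose and 4 fell, near the 26.5% of all genes for the falls, and 4 rose and none fell with scaling. Pfkfb3, which makes the activator of phosphofructokinase, was 22.1, 22.0 and 20.5 FPKM in mock and 73.8, 74.1 and 98.1 FPKM in LPS, a rise of 1.87, and Pfkl, a phosphofructokinase, fell by 1.22 and lost its call with scaling. DNA replication and mitosis genes fell in 6 of 21 tested cases, near the background of 26.5%, and in 3 with scaling. Pcna, the sliding clamp, was 237, 247 and 234 FPKM in mock and 73.4, 93.1 and 85.3 FPKM in LPS, a fall by 1.51.

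Mrc1, the mannose receptor, was 22.9, 19.8 and 21.2 FPKM in mock and 4.79, 4.31 and 6.23 FPKM in LPS, a fall by 1.88 (SE 0.13). The alternative activation list, of which it is a member, held 2 rises and 4 falls among 9 tested genes, or 2 and 3 with scaling. Arg1 rose by 1.32, from 193, 193 and 207.5 FPKM in mock to 517, 467 and 500 FPKM in LPS. Il4ra also rose, from 22.1, 23.7 and 18.2 FPKM to 36.3, 44.8 and 80.5 FPKM. The falls were in Mrc1, Pparg, Clec10a and Klf4. Scavenger and phagocytic receptors held 4 rises and 7 falls among 15, or 6 and 3 with scaling. As deposited, both lists stand beside 9.32% of all genes that rose and 26.5% that fell. With scaling they stand beside 1483 rises and 1310 falls among 9707 genes. Msr1, a scavenger receptor, rose by 1.88 and Mertk, a receptor for apoptotic cells, fell by 1.69. Among Fc receptors, Fcgr1 was 33.3, 33.6 and 26.7 FPKM in mock and 196, 160 and 378 FPKM in LPS, a rise of 2.84, and Fcgr4 rose by 2.50, or 1.94 without LPS replicate 3. Fcgr3 fell by 1.30 but was not called with scaling.

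Receptors for chemokines and purines rose in 3 of 10 tested cases and fell in 2, beside 9.32% of all genes that rose and 26.5% that fell. With scaling 5 rose and 1 fell, beside 1483 rises and 1310 falls among 9707 genes. Adora2b, an adenosine receptor, was 2.83, 3.51 and 4.28 FPKM in mock and 34.0, 40.5 and 35.1 FPKM in LPS, a rise of 3.05, and its relative Adora2a rose by 2.17. Ccr2, the receptor of monocyte recruitment, was 3.55, 2.35 and 2.70 FPKM in mock and 0.497, 0.132 and 0.973 FPKM in LPS and fell by 1.36, with an adjusted p of 0.0105 without LPS replicate 2. Metallothionein and iron genes held 4 rises and 3 falls among 12, near the 26.5% of all genes for the falls, or 6 and 1 with scaling. Tfrc, the transferrin receptor, was 73.7, 63.1 and 87.3 FPKM in mock and 8.91, 7.67 and 4.99 FPKM in LPS, a fall by 3.23 (SE 0.23), and Hmox1, which frees iron from haem, was 880, 1172 and 1163 FPKM in mock and 3365, 3205 and 1756 FPKM in LPS, a rise of 1.33. Hamp, which encodes hepcidin, was called with all libraries and not without LPS replicate 3 (adjusted p = 0.0148).

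Outside the lists, the largest falls were in Arhgap19, at 41.3, 38.1 and 35.9 FPKM in mock and 0.440, 0 and 0 FPKM in LPS, a change of −5.12. St6gal1, a sialyltransferase, was 19.7, 19.3 and 21.0 FPKM in mock and listed at 0 in all 3 LPS libraries, so that no fold is given. Tns1, a focal adhesion protein, and Sesn1, a stress-induced inhibitor of mTORC1, fell by 4.33 and 4.13 on the log2 scale. Among the most abundant genes, the lysosomal genes Psap and Ctsd fell by 1.15 and 1.66. Psap was 8673, 8436 and 8167 FPKM in mock and 3567, 3630 and 4202 FPKM in LPS. U90926 was 0.526, 0.867 and 0.565 FPKM in mock and 515, 434 and 434 FPKM in LPS, a rise of 8.13 (SE 0.16), the next largest after that of Il1b.

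As deposited, the counts for markers of macrophages and other cells stand beside 9.32% of all genes that rose and 26.5% that fell. Those with scaling stand beside 1483 rises and 1310 falls among 9707 genes. In the macrophage list 1 of 10 tested genes rose and 5 fell, and 3 rose and 2 fell with scaling. Csf1r, the receptor for the macrophage growth factor, was 529, 451 and 536 FPKM in mock and 326, 422 and 277 FPKM in LPS. Neutrophil markers rose in 2 of 6 tested cases, S100a8 from 38.4, 40.7 and 34.5 FPKM to 229, 222 and 178 FPKM and Camp from 0 in all mock libraries to 4.93, 6.38 and 3.45 FPKM. Of the other neutrophil genes, Ly6g and Mpo were under 1 FPKM in all 6 libraries, whereas Csf3r read 30.7 to 60.1 FPKM and Mmp8 4.97 to 11.9 FPKM. The summed level of the list was 82.1 to 88.8 FPKM in mock and 247 to 293 FPKM in LPS. Mast cell markers rose in 2 of 5 tested cases, Hdc, the histamine-forming enzyme, to 9.11, 6.60 and 20.3 FPKM, a change of 3.39 that was 2.97 without LPS replicate 3, while Cpa3 was listed at 0 in all 6 libraries, and the list summed to 0.517 to 3.09 FPKM in mock and 8.50 to 23.5 FPKM in LPS. Mesothelial and fibroblast genes were at 68.3 to 80.4 FPKM in mock and 50.7 to 52.8 FPKM in LPS, with 1 of 9 tested called, lower, and none with scaling. No gene of the 3 erythroid, 1 lung and 10 intestinal markers tested was called. Of the 2 dendritic cell markers, Ccr7 rose by 1.79 and Batf3 fell by 2.19.

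The same response was measured in TLR4-WT and TLR4-K810R macrophages, whose mock and LPS libraries are their own, so no library is shared between the responses. In TLR4-WT 1012 genes rose and 2316 fell, 10.4% and 23.9% of those tested. Of the 905 genes that rose in TLR4-K730R 88.7% also rose in TLR4-WT, and these 803 genes were 79.3% of the TLR4-WT rises. Of the falls 1924 were shared, 74.9% of those in TLR4-K730R and 83.1% of those in TLR4-WT. Across the 9707 genes the changes correlated with r = 0.905, a description over genes that are not independent. In TLR4-K810R 881 genes rose, 9.08%, and 1916 fell, 19.7%. There 742 of the rises were shared with TLR4-K730R, 82.0% of the rises in TLR4-K730R and 84.2% of those in TLR4-K810R, and 1659 of the falls, 64.6% and 86.6%. One gene was called in opposite directions against TLR4-WT, Clca3a2, a low gene at 0.642, 1.64 and 1.36 FPKM in mock and 0.0723, 0.0944 and 0.303 FPKM in LPS of TLR4-K730R, whose call held in 2 of 6 fits with 1 TLR4-K730R library left out, and 1 against TLR4-K810R, Adam17, a shedding protease whose fall by 0.60 was lost with scaling. Both are named because of their values.

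Whether the responses differ was tested with the difference between the changes in limma. Of 9707 genes 4 differed between TLR4-K730R and TLR4-WT, 0.0412%, and 1 between TLR4-K730R and TLR4-K810R, 0.0103%. At an unadjusted p below 0.05 there were 681 and 838. The 95% interval of a difference reached a median of 0.62 on the log2 scale to either side, and a gene that was not called is not thereby shown to respond alike. For cytokine genes and Nos2, the TLR4-K730R minus TLR4-WT difference was −0.03 (95% interval −0.43 to 0.37) for Tnf, −0.55 (−1.32 to 0.23) for Il1b, 0.51 (−0.74 to 1.75) for Il6 and −1.24 (−2.54 to 0.06) for Nos2. None of these was called. They include the replicate 3 libraries described above. Without LPS replicate 3 of both genotypes the differences were 0.13 for Tnf, −0.06 for Il1b, 1.49 for Il6 and −2.17 for Nos2. Again none was called at the threshold of 0.01 (limma adjusted p = 0.836, 0.957, 0.0663 and 0.0442). Both libraries were left out after their values were seen, and Il6 and Nos2 were among the genes in which TLR4-K730R LPS replicate 3 stood apart. These later differences are therefore a description and no independent evidence.

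The 4 genes called against TLR4-WT are interferon-inducible or, in the case of H2-M2, MHC class I related, and all 4 had lower mock values in TLR4-K730R than in TLR4-WT. Low mock values were not particular to TLR4-K730R, since those of TLR4-K810R were 6.88, 6.09 and 6.99 FPKM for Zbp1, 4.17, 3.91 and 3.60 FPKM for Ifit3, 7.19, 5.39 and 5.78 FPKM for Oas3 and 1.45, 1.65 and 3.25 FPKM for H2-M2. Zbp1, a sensor of Z-form nucleic acids (ENSMUSG00000027514, chromosome 2, 173206612 to 173218923, GRCm38), was 6.16, 6.09 and 7.25 FPKM in mock and 231, 227 and 244 FPKM in LPS of TLR4-K730R, and 22.1, 26.7 and 20.8 FPKM and 243, 240 and 238 FPKM in TLR4-WT. Its response was larger by 1.65 on the log2 scale (SE 0.15, adjusted p = 0.00015). The mock values of the genotypes did not overlap, and the LPS values overlapped through TLR4-K730R replicate 3 and not in replicates 1 and 2.

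Ifit3, an antiviral effector (ENSMUSG00000074896, chromosome 19, 34583531 to 34588731), was 7.22, 6.00 and 6.01 FPKM in mock and 393, 344 and 552 FPKM in LPS of TLR4-K730R, and 30.0, 34.6 and 34.1 FPKM and 538, 545 and 386 FPKM in TLR4-WT. The response was larger by 1.99 (SE 0.23, adjusted p = 0.00103), and the split of reads with its near copy Ifit3b is uncertain. Oas3, an oligoadenylate synthase (ENSMUSG00000032661, chromosome 5, 120753098 to 120777661), was 10.4, 10.04 and 7.69 FPKM in mock and 118, 100 and 143 FPKM in LPS of TLR4-K730R, and 41.2, 33.3 and 48.7 FPKM and 117, 125 and 95.2 FPKM in TLR4-WT, a difference of 2.11 (SE 0.25, adjusted p = 0.0012). The LPS values overlapped in Oas3, also in replicates 1 and 2, and in Ifit3 through the replicate 3 libraries. H2-M2, an MHC class I related gene (ENSMUSG00000016283, chromosome 17, 37480851 to 37483552), was 5.20, 4.75 and 4.10 FPKM in mock and 98.0, 102 and 89.7 FPKM in LPS of TLR4-K730R, and 16.4, 17.7 and 15.7 FPKM and 83.1, 91.1 and 87.3 FPKM in TLR4-WT, a difference of 1.78 (SE 0.24, adjusted p = 0.00535). The call of H2-M2 was lost without any 1 of the 6 TLR4-WT libraries, of TLR4-K730R mock replicates 2 and 3 or of the 3 TLR4-K730R LPS libraries, with an adjusted p between 0.0134 and 0.0274, and with the replicate block (adjusted p = 0.0157). Its LPS values overlapped through TLR4-K730R replicate 3.

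Mean log2 levels of the interferon-stimulated list showed the same mock pattern without a test, at 2.48, 2.44 and 2.40 in mock TLR4-K730R and 3.67, 3.70 and 3.59 in mock TLR4-WT. TLR4-K810R mock libraries were at 2.29, 2.24 and 2.36. Intestinal epithelium markers differed between the same mock libraries, with mean log2 levels over 10 genes of 0.03, 0.08 and 0.02 in TLR4-WT. They were at 2.72, 2.58 and 2.08 in mock TLR4-K730R. Those of TLR4-K810R were 2.38, 2.22 and 3.30, and their part in the mock difference was not tested. Against TLR4-K810R, the gene called was Hp, which encodes the haemoglobin scavenger haptoglobin (ENSMUSG00000031722, chromosome 8, 109575128 to 109579172). It was 428, 453 and 408 FPKM in mock and 1082, 1174 and 941 FPKM in LPS of TLR4-K730R, and 197, 164 and 165 FPKM and 1632, 1567 and 1461 FPKM in TLR4-K810R. Its response was smaller by 1.84 on the log2 scale in TLR4-K730R (SE 0.20, adjusted p = 0.00141), and here neither mock nor LPS values overlapped. It was not called with the replicate block (adjusted p = 0.0102).

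**Figure D5:**
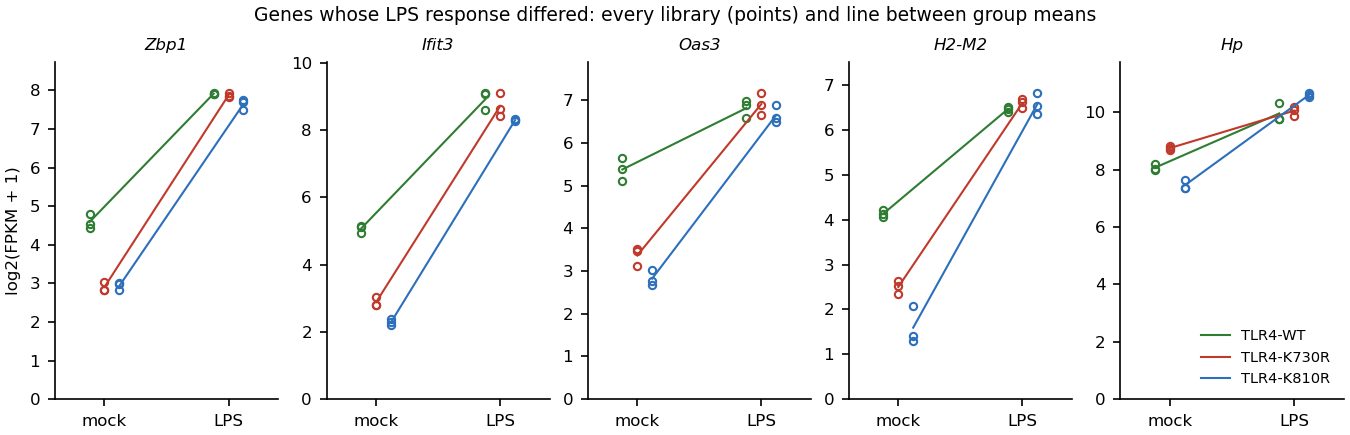
Level of the 5 genes whose LPS response differed, log2(FPKM + 1), in each library of the 3 genotypes, with lines between group means. Zbp1, Ifit3, Oas3 and H2-M2 start lower in TLR4-K730R (4.10 to 10.4 FPKM) than in TLR4-WT (15.7 to 48.7 FPKM) while their LPS values overlap, in Zbp1, Ifit3 and H2-M2 through replicate 3 libraries, and Hp rises less in TLR4-K730R than in TLR4-K810R.

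The count of differences turned on the libraries numbered 3. Leaving out TLR4-K730R LPS replicate 3 and TLR4-WT LPS replicate 3 together, a choice made after their values were seen, gave 859 rises and 2221 falls in TLR4-K730R and 30 genes that differed from TLR4-WT, where all libraries gave 4. The response was greater in TLR4-K730R in 15 of them and smaller in 15, and all 4 genes above were among the 30. Cxcl3 and Cxcl2 had a greater response in TLR4-K730R, by 1.90 and 1.55, and Ifit1 by 1.17. The chemokine genes Ccl7, Ccl12 and Cxcl11 had a smaller one, by a difference of −2.36, −1.95 and −1.80. Lipg, an endothelial lipase, differed by −2.19. It was listed at 0 in all mock libraries of both genotypes and read 1.58, 0.996 and 9.65 FPKM in TLR4-K730R LPS and 9.69, 8.99 and 1.72 FPKM in TLR4-WT LPS. Because the libraries were left out for values such as these, the 30 genes are a description and no independent evidence of a difference. Leaving out either library alone gave 3 genes.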

How the data were processed

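RNA-seq libraries of mouse peritoneal macrophages, 3 in each of 6 groups, were grouped by their labels. Per library, the authors deposited the FPKM of single transcript events, normalized for length and library size, without read counts. The aligner and counting program are not given in the sources used here, and the submitters' processing notes name the human build hg 18, but 14126 of 14138 Ensembl gene numbers and 92.8% of entries matched the mouse annotation GENCODE vM21 on GRCm38. For every gene, FPKM were summed over first exons and over last exons on its own strand and within its span, and the larger sum was taken, so values are partial where an exon is not listed, and 26 tested genes had a 0 beside a replicate above 5 FPKM. Adjacent or overlapping genes and close copies may share reads.

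The 9707 genes that reached 1 FPKM in 3 or more of 18 libraries entered limma (version 3.58.1, R 4.3.3) on log2(FPKM + 1), in one fit of all 6 groups with an intensity trend. P-values were adjusted by Benjamini-Hochberg. A gene was called at an adjusted p below 0.01. Differences between responses were contrasts in that fit. The response and its difference from TLR4-WT were tested on simulated data. Fold changes are on the log2(FPKM + 1) scale, which understates those of low genes. Gene values used Python 3.11.15 with pandas 2.3.3. Named genes were the TLR4 pathway, Il6, Tnf, Il1b and Nos2, and the largest changes among called genes whose LPS and mock libraries did not overlap. To these were added the most abundant called genes, up to 5 called members of each list in each direction and all genes with a called difference. Other genes were named after their values were seen. The members, lists and rules were chosen with earlier results of these data known. The fit did not pair libraries by replicate number. Deviations of same-numbered mock and LPS libraries correlated with r of −0.014, 0.022 and 0.033 in TLR4-K730R. In TLR4-WT r was −0.003, 0.052 and 0.092, and in TLR4-K810R −0.052, 0.027 and −0.044. No source used here says whether the libraries were paired, and these values cannot settle it. Alternatives covered pseudocount, filter, scaling, weights, block, fit, threshold, gene value and left-out libraries. Some of the listed genes are not analysed here, among them Irak1, Ticam1, Ticam2, Ifnb1, Cebpb, Ripk1, Zfp36, Socs1, Jun, Sod2 and Cd74.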

Additional observations from a re-analysis of the deposited data

Results flagged for a closer look

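Zbp1 had a larger LPS response in TLR4-K730R than in TLR4-WT by 1.65 on the log2 scale, as tested by the difference between the responses in limma. It kept its call in 24 of 24 alternatives, with differences of 1.54 to 1.78 and adjusted p-values of 8.16e-05 to 0.00191.

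Ifit3 differed by 1.99 between the same responses. Its call held in 25 of 26 alternatives, with differences of 1.64 to 2.14, and was lost when only the compared groups entered the fit (adjusted p = 0.0189). Oas3 differed by 2.11 and kept its call in 24 of 26 alternatives. It lost the call with only the compared groups in the fit (adjusted p = 0.0134) and with last-exon sums only, where the difference was 1.47 (adjusted p = 0.437).

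H2-M2 differed by 1.78, and its call held in 10 of 26 alternatives and was lost with the replicate block (adjusted p = 0.0157), with adjusted p-values from 0.000768 to 0.0303 and differences of 1.70 to 1.96. In all 4 genes the mock values of TLR4-K730R lay below those of TLR4-WT, as did those of TLR4-K810R. The LPS values of TLR4-K730R and TLR4-WT overlapped, in Zbp1, Ifit3 and H2-M2 through replicate 3 libraries and not in replicates 1 and 2.

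Hp had a smaller LPS response in TLR4-K730R than in TLR4-K810R, with a difference of −1.84 on the log2 scale. Its call held in 25 of 26 alternatives, with differences from −1.93 to −1.71, and was lost with the replicate block (adjusted p = 0.0102).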

How the results depend on the processing

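The 905 rises and 2568 falls became 1483 and 1310 with median-of-ratios scaling, and 517 and 1466 among the fewer genes with sums of both ends within 1.1 times of each other. The falls numbered 1323 when a change of at least 1 was required. Leaving out 1 library at a time gave 808 to 848 rises and 2044 to 2282 falls. The 4 differences from TLR4-WT became 2 with only the compared groups in the fit or with last-exon sums only, 7 at an adjusted p threshold of 0.05, 30 without both LPS replicate 3 libraries, a setting chosen after seeing the data, and 3 to 5 with 1 library left out. The 1 difference from TLR4-K810R became 3 with no filter, 2 with library weights, agreeing ends, last-exon sums only, all events of the gene number or a threshold of 0.05, 0 with the replicate block and 1 to 4 with 1 library left out, most without TLR4-K810R LPS replicate 1. For that block, the other counts were 861 rises, 2432 falls and 3 differences from TLR4-WT. Irak4 changed by 0.09 with first-exon sums only and P2rx7 by 0.04 with last-exon sums only, in place of falls. Of 166 values of named genes, scaling ended the call of 25 and added that of 3. Calls ended for 21 with only the compared groups in the fit, for 12 with last-exon sums only and for 9 to 18 with 1 TLR4-K730R library left out, most without mock replicate 1. The cause of these changes was not tested, except where fewer genes or libraries entered by construction. The files hold no read counts, so what depth limits is unknown, and 3 libraries per group limit the precision.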

Other observations

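Genes were also grouped by the letters of their symbols, which gave 88 families with at least 12 tested genes. Ribosomal protein genes fell in part, with 18 falls and no rise among 34 Rpl genes and 12 falls and 1 rise among 35 Rps genes, with medians of −0.66 and −0.58. With scaling 3 and 6 of them fell. Ndufa genes, subunits of respiratory complex I, fell in 6 of 13 cases and in none with scaling. Psmd genes, subunits of the regulatory particle of the proteasome, rose in 3 of 13 cases and fell in none, or rose in 7 with scaling. As deposited, these shares stand beside 9.32% of all tested genes that rose and 26.5% that fell. Those with scaling stand beside 1483 rises and 1310 falls among 9707 genes, and no set was tested.

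Snx genes, the sorting nexins of endosomes, fell in 13 of 26 cases and rose in 1, or in 7 and 3 with scaling. Dusp genes, phosphatases that act largely on MAP kinases, rose in 6 and fell in 5 of 15 cases, or 6 and 4 with scaling. Mmp genes, the matrix metalloproteinases, rose in 6 and fell in 2 of 12 cases, or 6 and 1 with scaling. These counts too stand beside 9.32% of all genes that rose and 26.5% that fell as deposited, and beside 1483 rises and 1310 falls among 9707 genes with scaling. The families were chosen for display after their values were seen.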
